A study of Mus musculus with 6 samples.

Results

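Chromatin remodellers and enzymes that write or erase marks on histones and DNA were followed in Atrx knockout and wildtype mouse retina. Atrx is itself a chromatin remodeller of the SNF2 family, and its signal was lower but not absent in the knockout retinas. The genes were taken by name: symbols that start with Smarc, Setd or Dnmt, or with Chd, Kdm, Hdac or Tet followed directly by a digit, on probe sets with exactly 1 gene symbol. This gave 75 of 41345 probe sets, for 69 genes, of which 68 genes were bright enough to be tested. The name rule also took in Dnmt3aos, a transcript from the opposite strand of the Dnmt3a locus, and Smarca5-ps, a pseudogene, which was too dim.

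Whole retinas of male mice at postnatal day 17 were compared on Affymetrix mouse gene arrays, with both eyes of a mouse pooled in a sample. The 3 knockout samples come from mice heterozygous for a Cre transgene (+/-) that carry the floxed Atrx allele (flox/y). The 3 wildtype samples come from littermates without the transgene (-/-) that are also Atrx flox/y, so the floxed allele is in all 6 mice and Cre in the knockout alone. Cre itself and the loss of Atrx therefore cannot be told apart. The labels do not give the share of cells that lost Atrx. The series' design text places the peak of amacrine and horizontal cell loss at this age.

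Remodellers use ATP to slide, evict or exchange nucleosomes. SWI/SNF, ISWI and CHD proteins are the main families, each built around an ATPase. Histone deacetylases, lysine demethylases and SET domain methyltransferases set the marks on histone tails, while DNA methyltransferases add and TET dioxygenases oxidise methyl groups on cytosine. In retina such enzymes accompany the exit of progenitors from division and the closing of chromatin in rods.

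The promoters of the 2 genes with the smallest unadjusted p, and of the gene with the smallest among those lower in knockout, show which kind of start region lies behind the values that follow. They come from RefSeq, build GRCm38.p6, as the 150 bases before the gene's listed start, written 5′ to 3′ along the gene's own strand, with GC boxes (GGGCGG) and CCAAT boxes (CCAAT) on either strand in capitals. The Kdm1b stretch lies at chr13:47043349-47043498 on the plus strand, that of Setdb2 at chr14:59440881-59441030 on the minus strand and that of Hdac11 at chr6:91156665-91156814 on the plus strand.
Kdm1b: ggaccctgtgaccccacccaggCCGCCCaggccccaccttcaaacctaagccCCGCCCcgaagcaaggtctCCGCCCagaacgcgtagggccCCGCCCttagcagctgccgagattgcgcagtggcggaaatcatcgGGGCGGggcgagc
Setdb2: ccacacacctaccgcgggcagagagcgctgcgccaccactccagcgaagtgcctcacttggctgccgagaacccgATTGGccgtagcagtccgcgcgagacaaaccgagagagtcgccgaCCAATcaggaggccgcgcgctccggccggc
Hdac11: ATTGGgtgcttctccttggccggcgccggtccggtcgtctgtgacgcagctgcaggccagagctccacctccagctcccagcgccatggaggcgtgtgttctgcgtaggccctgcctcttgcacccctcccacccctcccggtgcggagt

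The Kdm1b stretch holds 5 GC boxes and 13 CpG dinucleotides. The Setdb2 stretch holds 2 CCAAT boxes and 19 CpG dinucleotides, and the Hdac11 stretch 1 CCAAT box and 11 CpG dinucleotides. Over the 300-base windows of all 27025 genes in the RefSeq table, 35.9% hold a GC box and 37.9% a CCAAT box on either strand. Of the 69 genes, 54 matched an entry of that table (78.3%), under the 80% needed to give a share over the set.

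Atrx itself had RMA log2 values of 8.42, 8.72 and 8.33 in the knockout retinas, against 9.04, 8.86 and 9.17 in the wildtype retinas. The groups did not overlap, and the second knockout array was the closest to the wildtype ones. The log2 change, knockout minus wildtype, was -0.53 (SE 0.12), with an adjusted p of 0.115 in limma's test over all genes and an exact permutation p of 0.1, the smallest that 3 against 3 allows.

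Several arrays stood apart. Of the 14 lens genes listed, 9 were tested, with a mean log2 value of 10.21 for knockout 2, 11.38 for wildtype 1 and 5.47 to 5.97 for the remaining 4. Knockout 3 was labelled male like the rest, but the Y-linked genes Uty, Eif2s3y and Kdm5d were low there. Sry, also Y-linked and near the brightness floor on every array, was not (5.27, with the others between 5.14 and 5.33). Uty had log2 values of 7.96, 7.90 and 5.71 in the knockout retinas, against 7.72, 7.59 and 7.65 in the wildtype retinas. For Eif2s3y they were 8.40, 8.69 and 6.51 in the knockout, against 7.93, 7.73 and 8.16 in the wildtype. The single-symbol probe set of Xist was at or under 3.76 on every array, 3.76 being knockout 3. Knockout 1 was low for some pigment genes. Pmel was at 9.18 there and between 10.60 and 11.12 on the others, Dct at 9.87 (others 11.18 to 11.65) and Tyr at 5.70 (others 7.07 to 7.74). Its mean of 9 pigment epithelium markers was 9.01, with the others between 9.39 and 10.22. Of the 9 markers, 4 were lowest on knockout 1 and the other 5 on wildtype 1, where the mean was 9.39. Rpe65, for example, was at 7.46 on wildtype 1 and at 8.19 on knockout 1. The part of these array differences in other results was not tested.

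None of the 68 genes passed limma's test at an adjusted p under 0.05, where 129 of all 15619 genes tested did (0.826%, of which 0.48% were higher and 0.346% lower in knockout). At an unadjusted p under 0.05 there were 8 of the 68 (11.8%), against 13.5% of all genes. Of these 4 were higher in knockout (6.99% of all genes were) and 4 lower (6.5% of all genes). The 8 became 6 without knockout 3 (8.82%, against 14.7% of all genes). There were 5 without knockout 1 or wildtype 1 (7.35%, against 11.3% and 9.41%) and 3 without wildtype 2 (4.41%, against 8.57%). It was 7 without wildtype 3 (10.3%, against 11.3%) and 10 without knockout 2 (14.7%, against 16.4%). The 3 knockout values lay wholly above the 3 wildtype values for 8 genes and wholly below for 6, together 20.6%. Over all genes the shares were 10.7% and 9.58%, together 20.3%. With all 6 arrays, the counts for the chromatin genes were therefore close to those of the array as a whole.

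The intervals bound the change in the signal of whole retina, not the change within the cells that lost Atrx. For 65 of the 68 genes (95.6%, against 92.2% of all genes) the 95% interval of the log2 change lay wholly inside a 1.5-fold difference. This bound is 0.58 in either direction on the log2 scale. The other 3 were Kdm1b, Setdb2 and Kdm5d. Inside 1.25-fold lay the intervals of 39 genes (57.4%, against 47.2% of all genes). The median absolute log2 change was 0.067 for the set and 0.098 for all genes, at median SEs of 0.094 and 0.095.

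**Figure D1:**
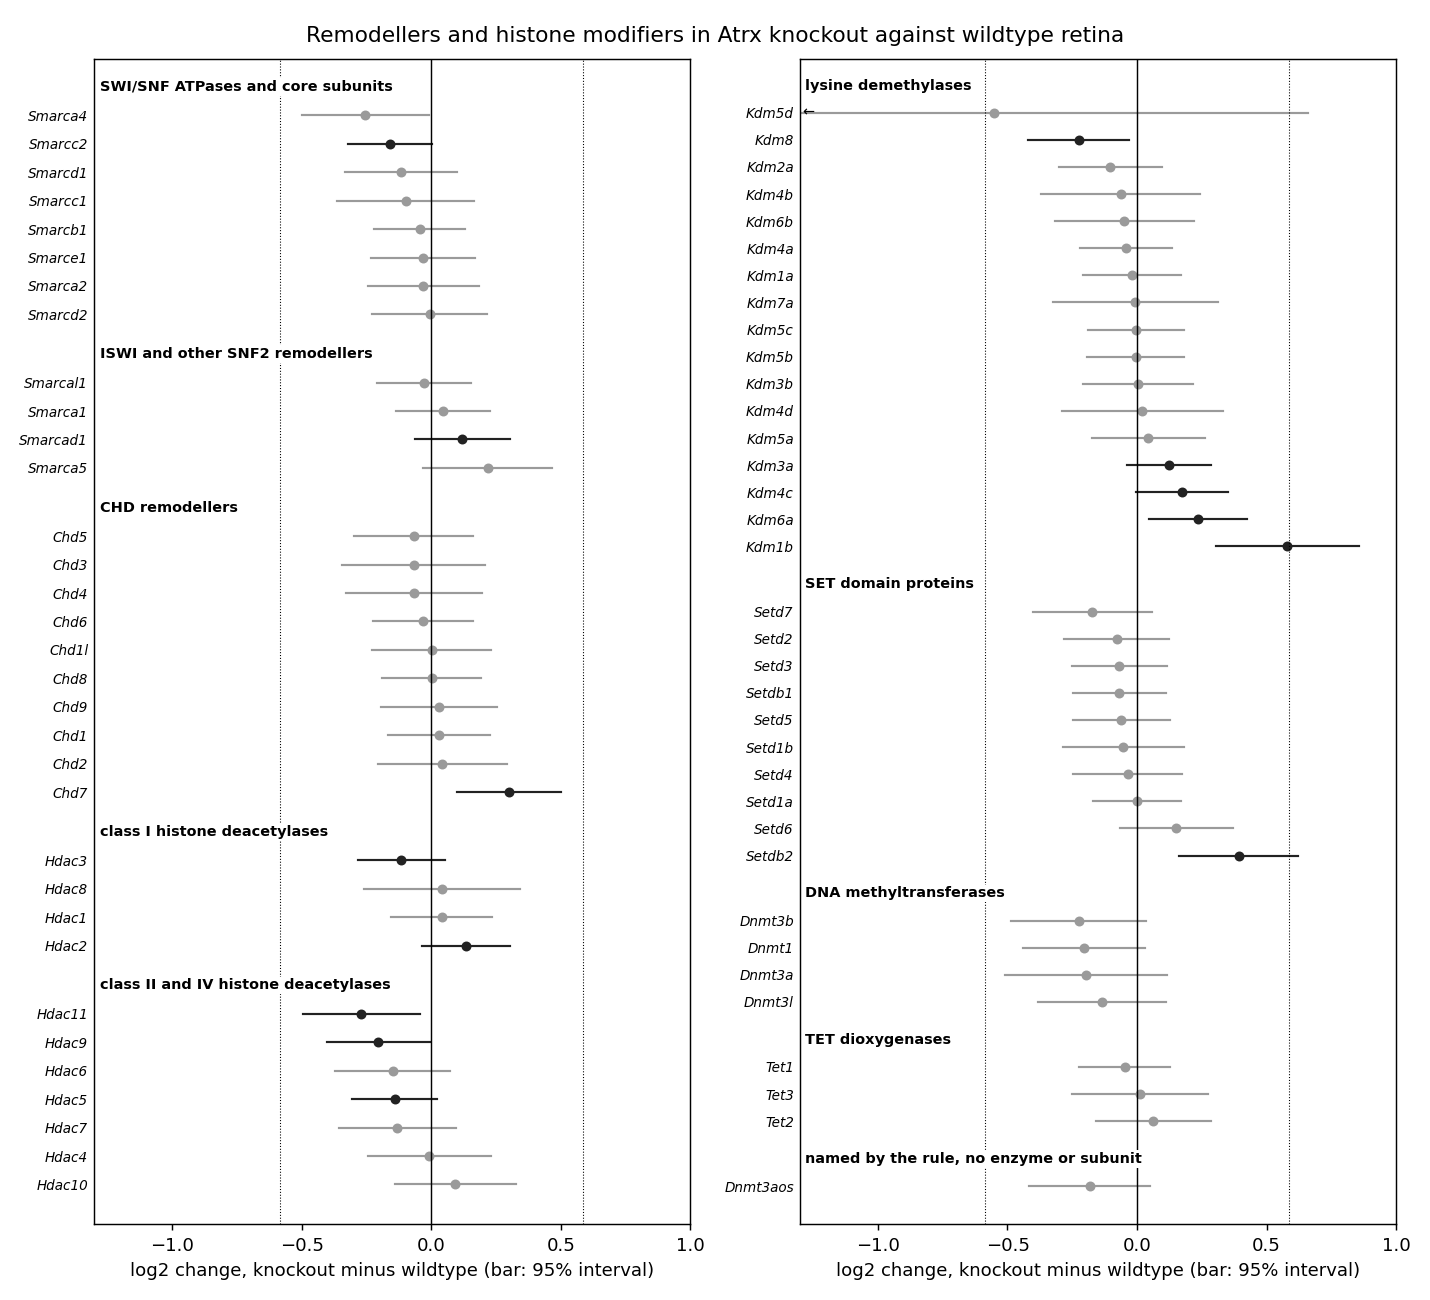
Log2 change (knockout minus wildtype, x axis) of the 68 tested genes by role group, with 95% intervals from limma as bars and dotted lines at a 1.5-fold difference. Black marks the 14 genes whose knockout and wildtype values did not overlap, grey the others; Kdm1b is the farthest right, and the interval of Kdm5d runs off the left edge.

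Among the lysine demethylases, which take methyl groups off histone lysines, Kdm1b differed most. It encodes a flavin-dependent demethylase known in mouse oocytes for the setting of maternal imprints. Its log2 values were 7.80, 7.85 and 7.60 in the knockout retinas, against 7.25, 6.94 and 7.32 in the wildtype retinas. All 3 knockout values were higher than the wildtype ones. The means were 7.75 ± 0.14 in knockout and 7.17 ± 0.20 in wildtype (SD, n = 3 each), further apart than either SD. The log2 change of 0.58 (SE 0.12, a 1.5-fold difference) missed the threshold over all genes (limma adjusted p = 0.084). It passed with a log2 floor of 6 (adjusted p = 0.045) and with an intensity trend and robust spread (0.027), and ran from 0.027 to 0.269 over 16 alternatives.

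Kdm6a, an X-linked demethylase that removes the mark laid by Polycomb, was at 9.50, 9.49 and 9.32 in the knockout retinas, against 9.15, 9.18 and 9.27 in the wildtype retinas. The groups lay close together without overlapping, and the log2 change was 0.24 (SE 0.083, limma adjusted p = 0.279). Kdm4c, a demethylase of heterochromatin marks, was at 10.20, 10.26 and 10.18 in knockout, against 10.08, 9.95 and 10.09 in wildtype. Here too every knockout value was the higher (log2 change 0.17, SE 0.077, limma adjusted p = 0.376). Kdm3a, which acts on the same histone lysine, had a log2 change of 0.12 with groups that did not overlap.

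In the other direction, Kdm8, a JmjC domain protein, was at 6.50, 6.62 and 6.38 in the knockout retinas, against 6.74, 6.76 and 6.68 in the wildtype retinas. Its log2 change was -0.23 (SE 0.085, limma adjusted p = 0.302). Apart from Kdm5d, the remaining 11 of the 17 demethylases tested had log2 changes between -0.10 (Kdm2a) and 0.04 (Kdm5a). In all, 10 of the 17 were below 0, with a median of -0.01, and none was called. That count and its sign rested on single arrays: it was 5 of 17 without knockout 3 (median 0.02), 4 without knockout 1 (0.04), 6 without wildtype 3 (0.03) and 13 without knockout 2 (-0.06).

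Kdm5d is the Y-linked member of the group and a demethylase of active marks. It was at 7.73, 7.81 and 5.53 in the knockout retinas, against 7.65, 7.42 and 7.65 in the wildtype retinas. A single array, knockout 3, made the difference: it lay 4.36-fold under the mean of the other 5 arrays, as Uty did by 4.14-fold and Eif2s3y by 3.18-fold. The log2 change was -0.55 (SE 0.53) with that array and 0.20 (SE 0.10) without it, with limma adjusted p-values of 0.685 and 0.414. The X-linked relatives did not share the pattern on knockout 3: Kdm5c was at 8.66 there and between 8.64 and 8.81 on the others, and Kdm6a at 9.32, within the range of the others. The origin of the low Y-linked signal was not tested.

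**Figure D2:**
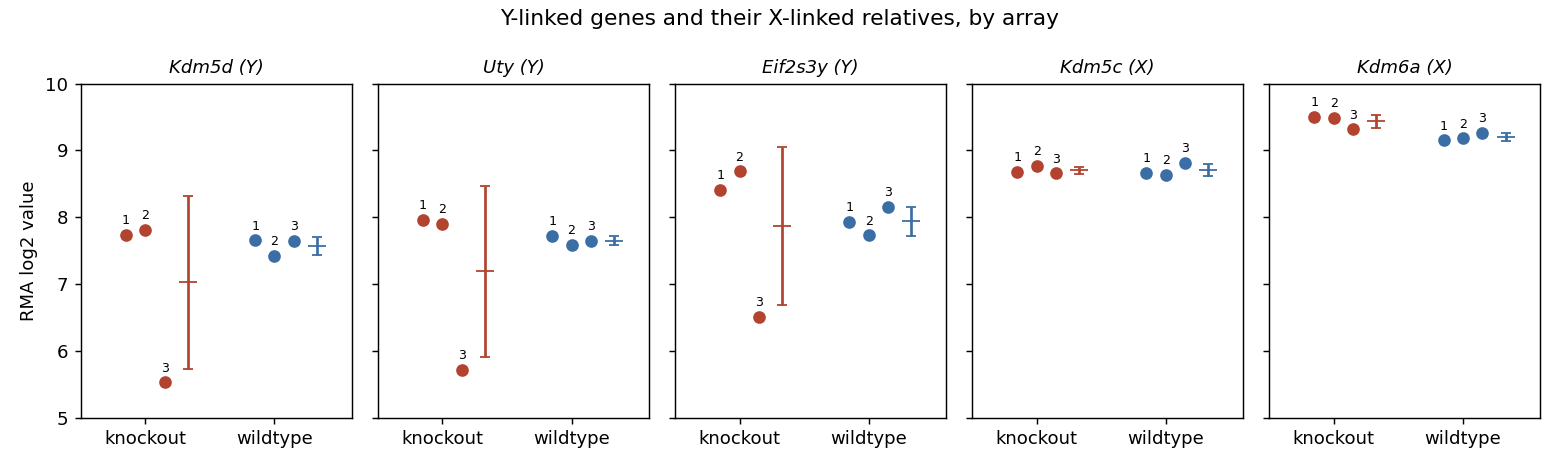
RMA log2 values (y axis) of 3 Y-linked genes and 2 X-linked genes by array, knockout left and wildtype right, each point numbered by replicate, with the mean and SD of 3 arrays beside the points. Knockout 3 is low for Kdm5d (5.53), Uty (5.71) and Eif2s3y (6.51) and within the range of the other arrays for Kdm6a.

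SET domain proteins add methyl groups to lysines, although Setd3 is known as a methyltransferase of actin. Setdb2, of the family that methylates histones in heterochromatin, was at 7.12, 7.24 and 6.89 in the knockout retinas, against 6.71, 6.64 and 6.73 in the wildtype retinas. All 3 knockout values were higher, and the knockout arrays were the more scattered (SD 0.18, against 0.048 in wildtype). The log2 change was 0.39 (SE 0.10, a 1.31-fold difference, limma adjusted p = 0.14). Its relative Setdb1 had a log2 change of -0.07. Of the 10 genes of the group 8 were below 0 (median -0.06), from Setd7 at -0.17 upward, with Setd2, which methylates histones along transcribed genes, at -0.08. Without knockout 3 it was 5 of 10, with a median of -0.02, and the median was -0.10 without knockout 2, -0.04 without knockout 1 and -0.03 without wildtype 3.

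Of the CHD remodellers, Chd7 differed most. Mutations in its human counterpart cause CHARGE syndrome, which often includes eye defects. Its log2 values were 9.15, 9.32 and 9.11 in the knockout retinas, against 8.90, 8.82 and 8.97 in the wildtype retinas. Every knockout value was above every wildtype value (log2 change 0.30, SE 0.087, limma adjusted p = 0.191). The other 9, among them the NuRD ATPases Chd3, Chd4 and Chd5, lay between -0.07 and 0.04. Chd3 and Chd8 each have a second, dimmer probe set past the brightness filter, with log2 changes of 0.02 and 0.08 when all probe sets were tested together.

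The SWI/SNF ATPases and core subunits were all slightly below 0, 8 of 8 with a median log2 change of -0.07 and none called. Over all genes tested 49.1% were below 0 and the median was 0.00. Smarca4, the Brg1 ATPase, was at 8.88, 9.26 and 8.94 in the knockout retinas, against 9.27, 9.26 and 9.31 in the wildtype retinas. Knockout 2 reached the wildtype level and the other 2 knockout arrays lay lower, so that the groups overlapped (log2 change -0.25, SE 0.11, limma adjusted p = 0.356). The alternative ATPase Smarca2 had a log2 change of -0.03.

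Smarcc2, a scaffold subunit, was at 9.70, 9.73 and 9.69 in the knockout retinas, against 9.87, 9.82 and 9.90 in the wildtype retinas. These arrays agreed closely within each group and did not overlap between groups (log2 change -0.16, SE 0.071, limma adjusted p = 0.382). Smarcd1 has a pair of probe sets of opposite sign, at -0.12 and 0.11. Without single arrays 6 or 7 of the 8 SWI/SNF genes were below 0, never all 8. The count was 6 without knockout 3 (median -0.06) and without wildtype 1 (-0.07). The median reached -0.14 without knockout 2 and -0.11 without wildtype 3. The ISWI ATPase Smarca5 was at 8.35, 8.48 and 8.23 in the knockout retinas, against 7.94, 8.18 and 8.27 in the wildtype retinas. Its groups overlapped (log2 change 0.22, SE 0.11, limma adjusted p = 0.425), and Smarcad1 at 0.12, Smarca1 at 0.05 and Smarcal1 at -0.03 made up the rest of that group. The log2 change of Smarca5 was 0.12 without wildtype 1 and 0.06 without both lens-rich arrays.

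**Figure D3:**
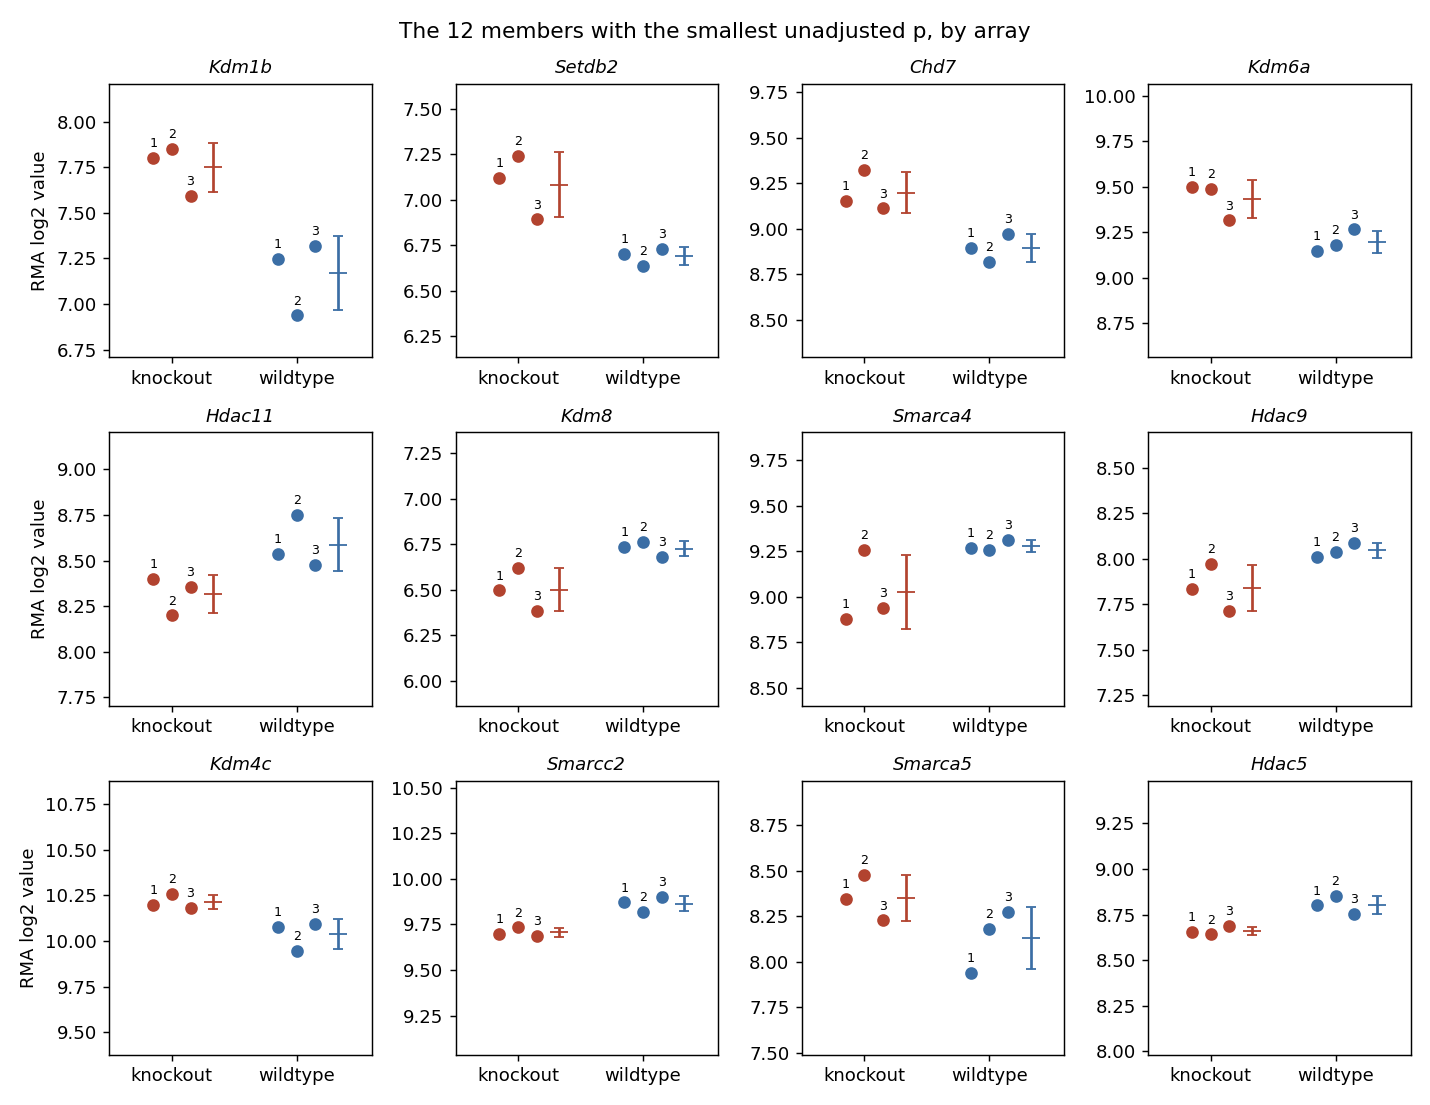
RMA log2 values (y axis, each panel spanning 1.5 log2 units) of the 12 genes with the smallest unadjusted p, knockout left and wildtype right, points numbered by replicate, with the mean and SD of 3 arrays beside them. Groups are apart in all panels but those of Smarca4 and Smarca5; the gap is widest for Kdm1b.

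Histone deacetylases remove acetyl groups. Of the class II and IV enzymes 6 of 7 were below 0, with a median log2 change of -0.14, and none was called. Without knockout 3, 5 of the 7 were below 0, with a median of -0.15. Their mean log2 value per array ran from 7.73 to 7.74 in the knockout retinas, against 7.84 to 7.86 in the wildtype retinas, without overlap. Hdac11, the only class IV enzyme, was at 8.40, 8.20 and 8.36 in the knockout retinas, against 8.54, 8.75 and 8.48 in the wildtype retinas. Every knockout value was the lower (log2 change -0.27, SE 0.099, limma adjusted p = 0.292), but its second probe set had a log2 change of 0.03, with groups that overlapped, so the gene's probe sets disagree. The mean of both gave -0.12.

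Hdac9, a class IIa enzyme that moves between nucleus and cytoplasm, was at 7.84, 7.97 and 7.71 in the knockout retinas, against 8.01, 8.04 and 8.09 in the wildtype retinas. Its log2 change was -0.20 (SE 0.087, limma adjusted p = 0.358). Hdac5, of the same class, was at 8.66, 8.64 and 8.69 in the knockout retinas, against 8.80, 8.85 and 8.75 in the wildtype retinas. Neither gene's groups overlapped, and the log2 change of Hdac5 was -0.14 (SE 0.071, limma adjusted p = 0.434). Hdac10, a class IIb enzyme, was the only one of the 7 above 0, at 0.09.

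Markers of amacrine cells were also lower in knockout. The mean log2 value of 11 such markers was 6.77 to 7.10 in the knockout retinas, against 7.46 to 7.58 in the wildtype retinas. For 9 of the 11 all knockout values were the lower. Of the 11, 5 fell (limma, adjusted p under 0.05): Slc5a7 at -1.56, Vip, Chat, Gad1 and Nos1. Other marker means that did not overlap were those of 6 horizontal cell genes, at 7.13 to 7.36 in knockout and 7.39 to 7.41 in wildtype, and of 7 ganglion cell genes, at 9.10 to 9.21 in knockout and 9.24 to 9.29 in wildtype. Rod markers, 8 genes, went the other way, at 11.57 to 11.61 in knockout and 11.46 to 11.54 in wildtype. The genes behind these 3 means were mixed. Of the horizontal cell genes 2 were wholly lower in knockout and 1, Tpm3, wholly higher. Of the ganglion cell genes 1 was wholly lower and 1, Sncg, wholly higher. Over all genes 9.58% were wholly lower and 10.7% wholly higher. Of the 8 rod genes 3 had log2 changes below 0. The part of these markers in the deacetylase difference was not tested. In whole tissue, fewer cells of a type and less RNA per cell cannot be told apart.

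The class I deacetylases, the nuclear enzymes of the main corepressor complexes, went both ways. Hdac2 was at 8.72, 8.82 and 8.75 in the knockout retinas, against 8.63, 8.58 and 8.67 in the wildtype retinas. Those values did not overlap (log2 change 0.13, SE 0.073, limma adjusted p = 0.472). Hdac3 had a log2 change of -0.12, also without overlap, while Hdac1 and Hdac8 each stood at 0.04.

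All 4 DNA methyltransferase genes were below 0, with a median log2 change of -0.20, and none was called. The median was -0.11 without knockout 1 and -0.22 without knockout 3, with 4 of 4 below 0 each time. Dnmt1, which copies methylation onto new DNA, was at 8.07, 8.44 and 8.18 in the knockout retinas, against 8.46, 8.44 and 8.40 in the wildtype retinas. As for Smarca4, knockout 2 reached the wildtype values and the other 2 knockout arrays did not (log2 change -0.20, SE 0.10, limma adjusted p = 0.435). The change ran from -0.31 without knockout 2 to -0.12 without knockout 1. Dnmt3a, a de novo enzyme, was low mainly on knockout 1: it was at 8.01, 8.56 and 8.45 in knockout, against 8.54, 8.55 and 8.52 in wildtype (log2 change -0.20, SE 0.14, limma adjusted p = 0.573). Without knockout 1, the array low for Pmel, Dct and Tyr, it was -0.03.

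Dnmt3b was dim, at 5.73, 5.56 and 5.64 in the knockout retinas, against 5.66, 5.86 and 6.08 in the wildtype retinas. Its log2 change was -0.22 (SE 0.11, limma adjusted p = 0.437), and -0.12 without wildtype 3. Dnmt3l, a cofactor without catalytic activity, had a log2 change of -0.14. The opposite-strand transcript Dnmt3aos, near the brightness floor, was at 5.09, 4.82 and 4.82 in the knockout retinas, against 4.98, 5.09 and 5.20 in the wildtype retinas. Its groups overlapped (log2 change -0.18, SE 0.10, limma adjusted p = 0.481). Whether RNA of Dnmt3a adds to the signal of that probe set was not tested. Taken singly, all 4 methyltransferase family genes overlapped between the groups, where 20.3% of all genes did not. Their mean per array did not overlap, at 6.75 to 6.93 in knockout retinas, against 7.02 to 7.11 in wildtype retinas. The amacrine, horizontal and ganglion cell marker means, lower in knockout, and the rod mean, higher, separate the groups as well, and their part was not tested here either.

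The TET enzymes, which start the removal of DNA methylation, differed little. Tet2 was at 8.941, 9.244 and 9.137 in the knockout retinas, against 9.004, 8.996 and 9.131 in the wildtype retinas. Its groups overlapped (log2 change 0.06, SE 0.097, limma adjusted p = 0.812), with Tet1 at -0.05 and Tet3 at 0.01.

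Across the set, 44 of 68 genes were below 0 (64.7%), against 49.1% of all genes, with a median log2 change of -0.03. This lean rested on single arrays: it was 33 of 68 without knockout 3, 31 of 68 without knockout 1, and 53 of 68 without knockout 2. Without both lens-rich arrays it was 52 of 68, with no gene called. The genes varied together within the knockout group. Knockout 2 held the highest of the 3 knockout values for 52 of the 68 (76.5%), against 40.7% of all genes, and knockout 3 for 4 (5.88%, against 26.6%). Relative to the wildtype mean, the median of the set was -0.09 on knockout 1, 0.08 on knockout 2 and -0.07 on knockout 3, where the median of all genes stayed between -0.01 and 0.02.

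Knockout 2 was also the lens-rich knockout array, with the highest of the knockout values for Atrx (8.72) and for the amacrine marker mean (7.10). Their part in its higher values was not tested. On wildtype 1, the other lens-rich array, the median deviation of the set from the 6-array mean was 0.02, against 0.10 on knockout 2. Among the knockout arrays the mean of the class II and IV deacetylases was highest on knockout 2 but differed little (7.737, 7.744 and 7.732). Of its 7 genes, 4 had their lowest value of all 6 arrays on knockout 2 and 1 its highest.

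**Figure D4:**
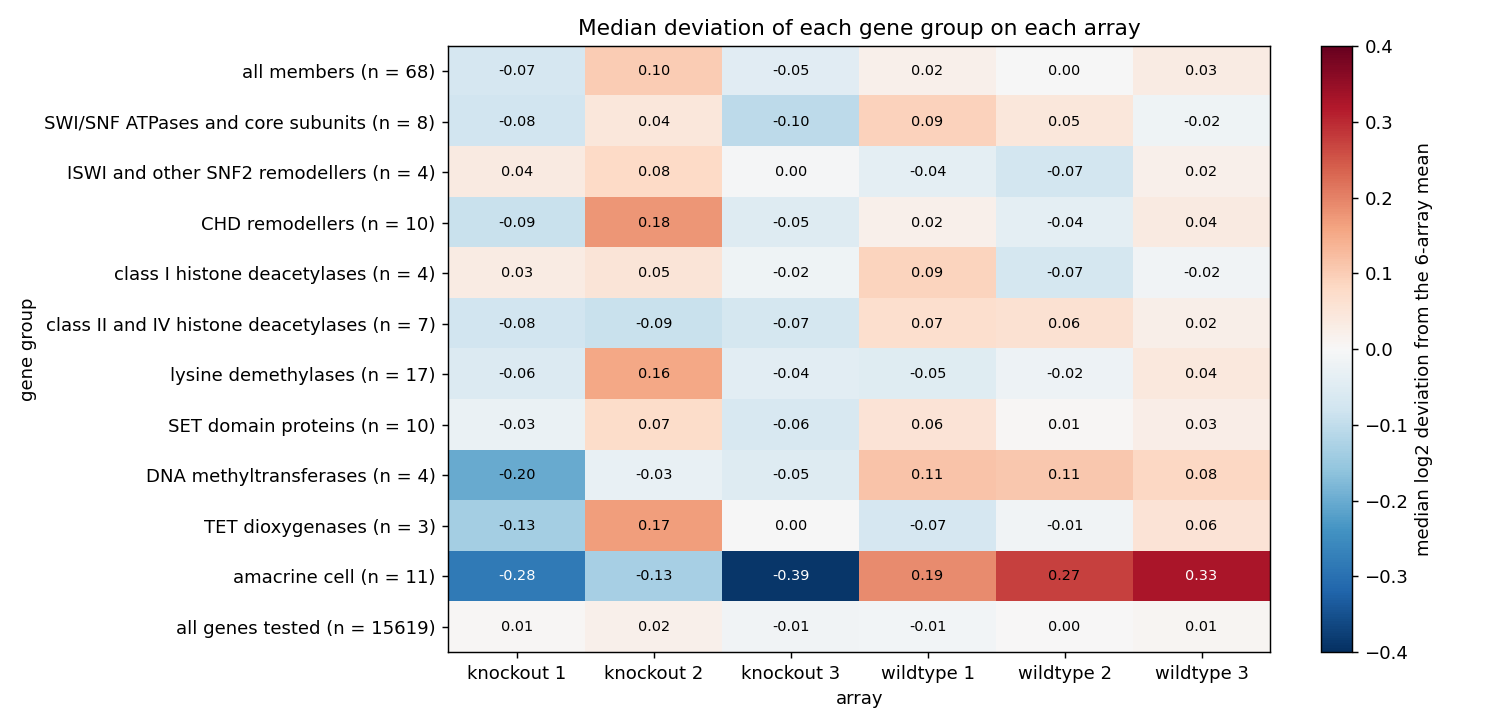
Median log2 deviation of each gene group (rows, with the number of genes) from its 6-array mean on each array (columns, knockout left of wildtype); red is above and blue below. The full set is at 0.10 on knockout 2 and at -0.07 and -0.05 on knockout 1 and 3, while class II and IV deacetylases and DNA methyltransferases are negative on all 3 knockout arrays.

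Of 178 other chromatin genes in 11 lists, 156 were tested. A single gene was called (0.641%, against 0.826% of all genes): Baz2b, a bromodomain subunit of ISWI remodelling complexes, rose. Its log2 values were 9.74, 9.95 and 9.77 in the knockout retinas, against 9.13, 9.10 and 9.17 in the wildtype retinas. The knockout arrays were all higher, with a log2 change of 0.69 (SE 0.082, a 1.61-fold difference, limma adjusted p = 0.010). The call was lost without wildtype 2 (adjusted p = 0.073), without wildtype 3 (0.055) and without both lens-rich arrays (0.072), the adjusted p running from 9.4e-04 to 0.073 over the alternatives. In that list of 14 ISWI, INO80 and SRCAP partners, Hells had a log2 change of 0.29 and 13 genes were not called.

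Polycomb genes, which keep developmental genes silent, were above 0 in 16 of 22 cases, with a median log2 change of 0.09, and none was called. Pcgf6 was at 0.34 (limma adjusted p = 0.099), Bmi1 at 0.33, the methyltransferase Ezh2 at 0.29 and Phf1 at -0.24. For 7 of the 22 every knockout value was the higher (31.8%, against 10.7% of all genes), and for 1, Phf1, the lower.

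In the other lists no gene was called. Of 20 SWI/SNF partner subunits 8 were below 0, with the neuronal factor Bcl11a at -0.40 and Arid1b at -0.15. Of 7 sirtuins, deacetylases of another chemistry, 5 were above 0, with Sirt1 at 0.30 and Sirt5 at -0.19. The 17 NuRD and corepressor genes held Sap30 at 0.27 and Mta2 at -0.15, and the 13 acetyltransferases Hat1 at 0.22 and Crebbp at -0.18. Among the 18 further lysine methyltransferases the meiotic gene Prdm9 was at 0.30 and Nsd1 at 0.17. The 18 Atrx and heterochromatin partners held Dek at 0.27 and Chaf1b at -0.29. The 9 acetyl-lysine readers held Zmynd8 at -0.30 and Brd8 at 0.21, and the 11 methyl-CpG readers and demethylation partners Zbtb4 at -0.23 and Apobec1 at 0.22. The 7 arginine methyltransferases lay between -0.04 and 0.10, with Prmt1 the highest.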

How the data were processed

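Values are log2 expression per probe set, deposited by the authors and made with RMA (background correction, quantile normalization, probe set summary), per the submitters' processing notes. Neither the RMA version nor the genome build is given in the sources used here. RMA makes array distributions alike, so a global shift would not be seen, and it compresses differences of dim probe sets.

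Samples were grouped by their titles. The driver of the Cre transgene is not reported here. A probe set was used with a log2 value of at least 5 on at least 3 of 6 arrays and exactly 1 symbol in the platform annotation; a gene was represented by its brightest probe set. Of the 75 probe sets of the set, 68 were tested, 4 were second probe sets and 3 too dim. Levels of different probe sets were not compared. Differences were fitted over 15619 genes with limma 3.58.1 in R 4.3.3 (lmFit, eBayes, 2-sided) and Benjamini-Hochberg adjustment, called under 0.05. Log2 changes are knockout minus wildtype with limma's SE. The number of arrays limits the precision; p-values measure the spread between these samples.

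Genes named with full values by rule are Atrx, any called gene of the set, the 16 of the set with the smallest unadjusted p and the smallest of each role group; of each other list, the called genes and the 2 with the smallest p. Other names and values, such as those of Dnmt3a and Kdm5d, were chosen after their values were seen. The genes, lists and alternatives were chosen with earlier results of these data known. Alternatives were the brightness filter, normalization, spread model, array weights, replicate block, probe set choice and arrays left out. The procedure was tested on simulated data. Same-numbered samples did not deviate together (r of -0.27, -0.38 and -0.06 for numbers 1, 2 and 3). Figures were drawn with matplotlib 3.10.9.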

Additional observations from a re-analysis of the deposited data

How the results depend on the processing

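None of the 68 chromatin genes was called in 14 of 16 alternatives; Kdm1b alone, 1 gene, was called with a log2 floor of 6, where fewer genes were tested, and with an intensity trend and robust spread. Of 17 named genes of the set, 16 kept their direction in all alternatives run; Tet2 (log2 change 0.06) turned to -0.025 without knockout 2 and wildtype 1 together, and ran from -0.0050 without knockout 2 to 0.15 without knockout 1. The call of Baz2b was lost in 3 of 16. Atrx passed with an intensity trend and robust spread (log2 change -0.53, limma adjusted p = 0.039, in a range of 0.039 to 0.320), and its change ran from -0.64 to -0.45 without single arrays. The 129 genes called in all became 74 with no filter, 209 with a floor of 6, 282 with an intensity trend, 68 with the replicate block, 45 with all probe sets tested together and 36 without both lens-rich arrays, and 25 to 141 without single arrays (none of the set then). The replicate block changed no call of the set, which had none without it. Whether same-numbered samples are pairs cannot be told from these values. The set's count below 0 was 49 of 68 with a second quantile normalization (72.1%, against 54.1% of all genes). It was 47 with centred arrays (69.1%, against 50.4% of all genes). The cause of these shifts was not tested. Signal near background limits Dnmt3b, Dnmt3l and Dnmt3aos.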

Other observations

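Probe sets with several symbols, which the comparison did not use, carry further names of these families. The probe set of Smarcd3 and Chpf2 was at 6.94, 6.75 and 6.85 in the knockout retinas, against 7.04, 7.21 and 7.04 in the wildtype retinas, a log2 change of -0.25 (SE 0.092, limma adjusted p = 0.406 over all probe sets). Its groups did not overlap, and which of the 2 genes gave the signal cannot be told apart. The probe set of Kdm2b and Gm2479 had a log2 change of 0.00 (SE 0.085).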
